A study of Fundulus heteroclitus with 36 samples.

Results

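The genes slc17a7a and sfxn3 of the Atlantic killifish (Fundulus heteroclitus) are 2 of the 31637 genes with an estimate in these brain libraries, and both were among the 23292 genes with enough reads to test. They were chosen by their measured levels, which differed between 2 populations of the fish. Their levels by population are therefore given below as a description with no test, and tests are given for the exposures, whose control libraries are also those of the population contrast. Both genes carried a symbol in the RefSeq table for killifish, and each was represented by 1 transcript, of 2303 bases for slc17a7a and 1609 bases for sfxn3. No isoform could be compared for either gene.

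RNA was sequenced from the whole brains of 36 individual embryos at 17 days post fertilisation, 6 embryos in each of 6 groups. Their parents belonged to killifish of Scorton Creek (SCO) or of New Bedford Harbor (NBH), 2 sites in Massachusetts. SCO Control and NBH Control embryos had parents on a salmon diet low in methylmercury, a neurotoxic form of mercury. SCO Hg Fed embryos had parents on a tuna diet high in methylmercury and received no direct treatment. SCO PCB40, NBH PCB40 and NBH PCB400 embryos came from parents on the low-methylmercury diet and were exposed from day 1 to day 7 to PCB126, a dioxin-like polychlorinated biphenyl, at 40 or 400 ng/L as the group name gives. There was no SCO group at 400 ng/L and no NBH group with the tuna diet. Whether embryos within a group were siblings is not given in the labels, so p-values measure the spread between these embryos only.

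slc17a7a belongs to the vesicular glutamate transporters, which load glutamate, the main excitatory transmitter of the vertebrate brain, into synaptic vesicles. Its mammalian counterpart, VGLUT1, is known from neurons of the cortex, the hippocampus and the granule cells of the cerebellum, whereas VGLUT2, the counterpart of slc17a6b in this list, is known mainly from deeper brain regions and the brainstem. sfxn3 belongs to the sideroflexins, transporters of the inner mitochondrial membrane. In human cells SFXN1 and, with some overlap, SFXN3 carry serine into mitochondria, where it feeds one-carbon metabolism.

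Both genes were expressed at a low level. The deposited TPM values (transcripts per M), which correct for transcript length, had a median over the 36 embryos of 1.41 for slc17a7a and 2.9 for sfxn3. Estimated reads of slc17a7a ran from 20 in NBH Control embryo 5 (exact Poisson 95% interval 12.2 to 30.9) to 538.7 in SCO Control embryo 3 (494 to 586). For sfxn3 they ran from 26 in NBH PCB400 embryo 5 (17.0 to 38.1) to 973.2 in SCO Control embryo 6 (913 to 1040). These intervals cover counting error only. Libraries held 38.5 to 66.4 M estimated reads.

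slc17a7a was highest in the SCO Control brains. The 6 SCO Control embryos, numbered 1 to 6 as in the labels, had 10.5, 6.21, 8.85, 6.24, 3.86 and 3.27 CPM (counts per M reads, scaled by TMM factors). The 6 NBH Control embryos had 0.802, 1.04, 1.5, 1.27, 0.445 and 0.58 CPM. Every NBH Control embryo lay below every SCO Control embryo. The group means were 6.49 ± 2.8 and 0.94 ± 0.407 CPM (SD, n = 6 each), and the fitted log2 fold change of NBH Control against SCO Control was −2.79 (SE 0.52), a 6.89-fold lower level. In whole brains, fewer cells of a type and less RNA per cell cannot be told apart.

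sfxn3 showed the same order of the controls. The SCO Control embryos had 19.5, 10.1, 10.4, 15.9, 14.8 and 16.2 CPM, and the NBH Control embryos had 2.43, 2.57, 2.18, 2.81, 1.56 and 1.72 CPM. Here too the groups did not overlap. The means were 14.5 ± 3.64 and 2.21 ± 0.489 CPM (SD, n = 6 each), with a log2 fold change of −2.71 (SE 0.37), a 6.54-fold lower level. Across all genes tested, 7.68% had every NBH Control embryo below every SCO Control embryo, and 17.4% were called in either direction (edgeR quasi-likelihood test, Benjamini-Hochberg adjusted p under 0.05). Nothing is read from the members' place in those shares, since this contrast chose them. A lower log2 fold change than that of slc17a7a was found for 0.408% of genes, and a lower one than that of sfxn3 for 0.429%. These places too follow from the choice of the genes, and nothing is read from them.

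**Figure D1:**
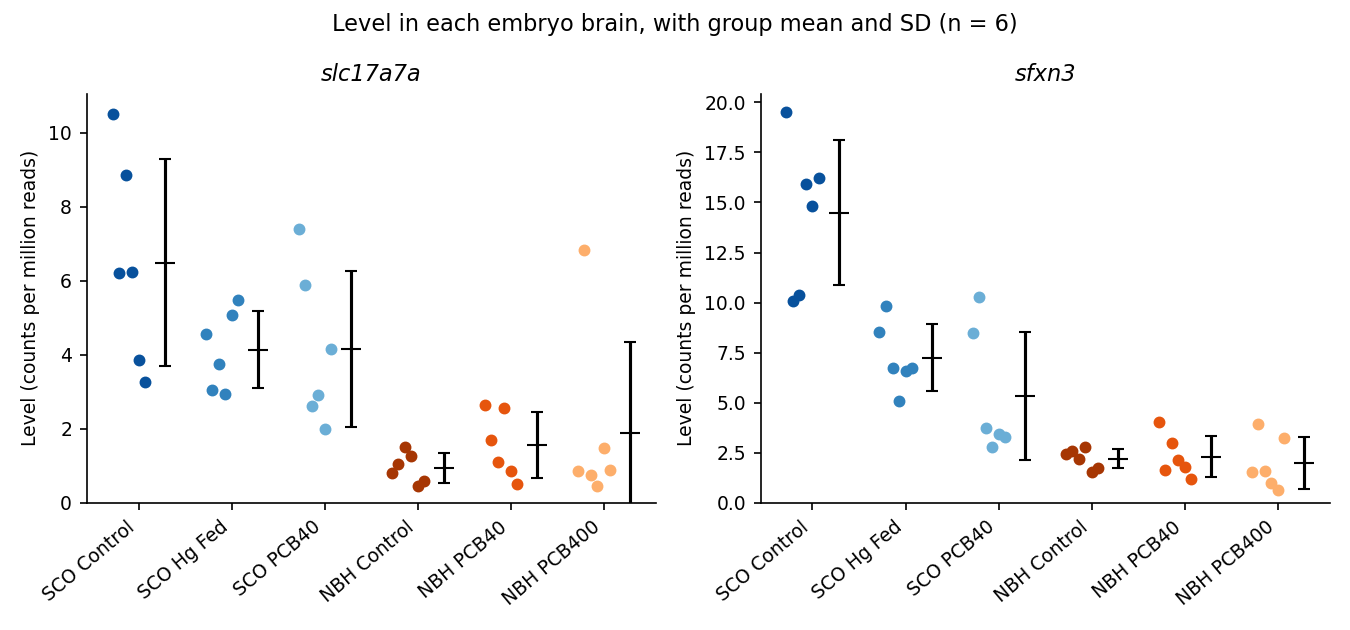
CPM of slc17a7a and sfxn3 (vertical axes) in each of the 36 embryos (points) by group, with the mean and SD (n = 6) as line and bar. The lower end of the NBH PCB400 bar for slc17a7a is clipped at 0, because 1 embryo at 6.84 CPM gives that group an SD of 2.45 around a mean of 1.88.

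At the shared PCB126 dose the populations were compared in the same way. slc17a7a stood at 7.39, 5.89, 2.61, 2.92, 2.0 and 4.16 CPM in SCO PCB40 embryos 1 to 6. In NBH PCB40 embryos it stood at 2.63, 1.71, 1.09, 2.56, 0.847 and 0.512 CPM. Of the NBH embryos, 4 of 6 were below every SCO PCB40 embryo and the other two, embryos 1 and 4, lay inside the SCO range. The log2 fold change of NBH PCB40 against SCO PCB40 was −1.42 (SE 0.49). For sfxn3 the SCO PCB40 embryos had 8.5, 10.3, 3.76, 2.8, 3.44 and 3.31 CPM and the NBH PCB40 embryos 4.02, 1.65, 2.97, 2.16, 1.8 and 1.17 CPM. Again 4 of 6 NBH embryos were below every SCO embryo, and the log2 fold change was −1.22 (SE 0.35). At this dose 0.404% of all genes tested had every NBH embryo below every SCO embryo, which neither member had. In either direction 0.726% were called. The share of genes with 4 of 6 embryos below was not taken.

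Over all exposures, 15 of 18 NBH embryos had less slc17a7a than any SCO embryo. The medians were 0.969 CPM in NBH and 4.36 CPM in SCO. For sfxn3, 13 of 18 NBH embryos were below every SCO embryo, with medians of 1.98 and 8.51 CPM. The genes were chosen for a difference between populations, and the share of all genes with such counts was not taken. Nothing is therefore read from these counts.

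By group median, slc17a7a ranked SCO Control (6.23 CPM), SCO Hg Fed (4.16), SCO PCB40 (3.54), NBH PCB40 (1.4), NBH Control (0.923) and NBH PCB400 (0.872). Each neighbouring pair in that order overlapped between embryos. For sfxn3 the order of medians was SCO Control (15.4 CPM), SCO Hg Fed (6.73), SCO PCB40 (3.6), NBH Control (2.3), NBH PCB40 (1.98) and NBH PCB400 (1.57). SCO Control and SCO Hg Fed were the only neighbours of this order that did not overlap. The ranges of the 3 NBH groups overlapped for both genes.

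sfxn3 fell in SCO brains exposed to 40 ng/L PCB126. The SCO PCB40 mean was 5.34 ± 3.19 CPM against 14.5 ± 3.64 CPM in SCO Control (SD, n = 6 each), and 5 of 6 exposed embryos were below every control. The log2 fold change was −1.44 (SE 0.35, 95% interval −2.15 to −0.73), a 2.71-fold decrease, with an adjusted p of 0.021 by edgeR's quasi-likelihood test. Of all genes tested, 2.67% were called in this contrast and 1.92% were called lower. Every exposed embryo was below every control for 1.46%, an arrangement that sfxn3 did not meet. The controls of this test are also controls of the contrast that chose the gene, so that choice favours a decrease here. Exposed embryos 3 to 6 lay between 2.8 and 3.76 CPM, while embryos 1 and 2, at 8.5 and 10.3 CPM, sat on either side of the lowest control at 10.1 CPM. The call ended when only the 2 groups compared were fitted (adjusted p = 0.0809, edgeR), when a length trend was removed (0.0511), and without SCO Control embryo 1 (0.0576), SCO PCB40 embryo 4 (0.0696) or SCO PCB40 embryo 5 (0.0669).

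The parental methylmercury diet gave a similar placement of sfxn3 that did not pass the test. SCO Hg Fed embryos had 8.53, 9.82, 6.73, 5.1, 6.6 and 6.72 CPM. All 6 were below every SCO Control embryo, an arrangement found for 0.219% of genes tested. These controls are also controls of the contrast that chose the gene. That choice favours such an arrangement, so nothing is read from the share. The log2 fold change was −1.0 (SE 0.34, 95% interval −1.7 to −0.3), with an unadjusted p of 0.00671 and an adjusted p of 0.509 (edgeR). No gene was called in this contrast by edgeR (0.0% of genes), 1270 genes had an unadjusted p under 0.05, and DESeq2 called 77. DESeq2 gave sfxn3 an adjusted p of 0.271.

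slc17a7a passed no exposure test. SCO Hg Fed embryos had 4.56, 3.06, 3.76, 2.94, 5.06 and 5.47 CPM, with a log2 fold change against SCO Control of −0.65 (SE 0.48, 95% interval −1.62 to 0.32, edgeR adjusted p = 1.0). For SCO PCB40 the log2 fold change was −0.64 (SE 0.48, 95% interval −1.61 to 0.33, edgeR adjusted p = 0.512). Both intervals contain no difference and also a decrease of the size fitted for sfxn3 under PCB126.

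In NBH brains neither gene passed the test at either dose. At 40 ng/L the log2 fold change was 0.73 for slc17a7a (SE 0.50, 95% interval −0.28 to 1.74) and 0.05 for sfxn3 (SE 0.35, 95% interval −0.66 to 0.76), both with an edgeR adjusted p of 1.0. In that contrast edgeR called no gene (0.0%), 713 genes had an unadjusted p under 0.05 and DESeq2 called 18. At 400 ng/L, slc17a7a stood at 0.851, 6.84, 0.764, 0.445, 1.49 and 0.893 CPM and sfxn3 at 1.55, 3.92, 1.59, 1.01, 0.635 and 3.25 CPM.

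Embryo 2 of that group carried the slc17a7a mean. The log2 fold change of NBH PCB400 against NBH Control was 1.00 (SE 0.50, 95% interval −0.01 to 2.01, edgeR adjusted p = 0.245), and without embryo 2 it was −0.09. For sfxn3 it was −0.15 (SE 0.35, 95% interval −0.86 to 0.57, edgeR adjusted p = 0.853). In this contrast 3.74% of genes were called. Between the 2 doses the log2 fold change was 0.27 for slc17a7a (SE 0.49, edgeR adjusted p = 0.796) and −0.81 without embryo 2. For sfxn3 it was −0.20 (SE 0.35, edgeR adjusted p = 0.791), in a contrast with 3.53% of genes called.

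Whether the response to 40 ng/L differed between the populations was tested as an interaction. The SCO response minus the NBH response was −1.49 on the log2 scale for sfxn3 (SE 0.49, 95% interval −2.49 to −0.49, edgeR adjusted p = 0.342). For slc17a7a it was −1.37 (SE 0.69, 95% interval −2.77 to 0.03, edgeR adjusted p = 0.555). Neither passed, so the SCO decrease of sfxn3 is not shown to differ from the NBH response. The term contains the contrast of the controls that chose the genes, and that choice favours a negative value. Nothing is therefore read from its sign or from its interval. Of all genes tested, 0.0172%, 4 in all, were called for it.

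**Figure D2:**
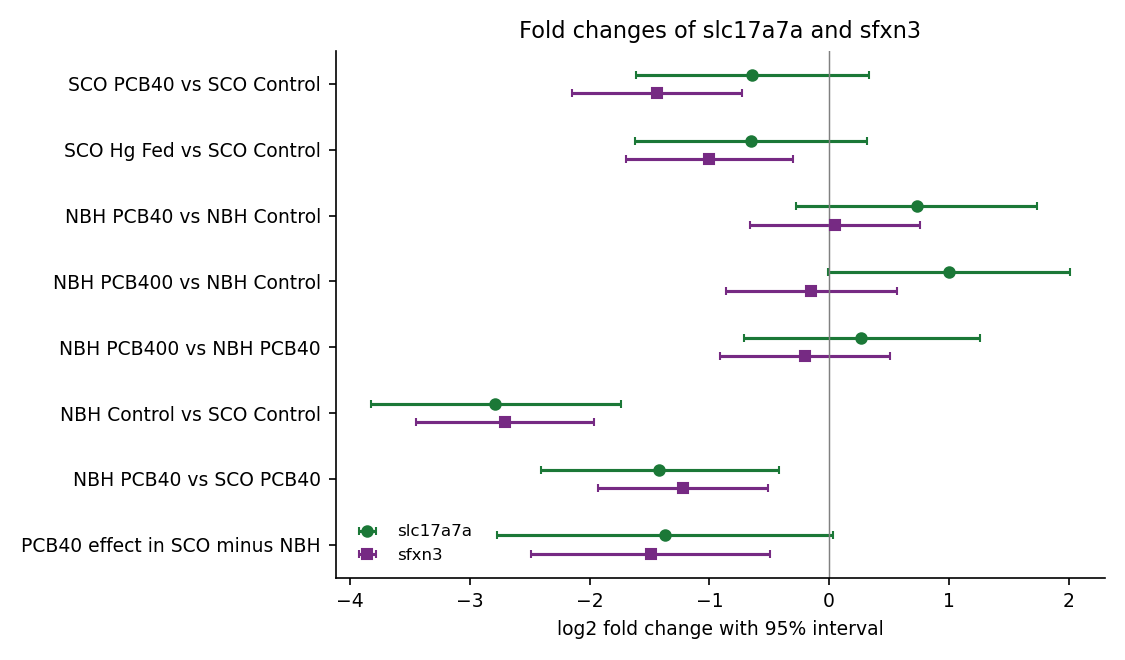
Log2 fold changes of slc17a7a and sfxn3 (horizontal axis) with their 95% intervals in 8 contrasts of the fit over 36 libraries. The intervals for both population contrasts are descriptions. Those of sfxn3 for SCO PCB40, SCO Hg Fed and the interaction do not reach 0, and of these only the first passed adjustment over all genes. Each of these uses the SCO Control libraries, whose level was part of the choice of the gene. The interaction contains the contrast of the controls that chose it, so nothing is read from its interval.

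Among the vesicular glutamate transporters with a symbol, slc17a7a was the middle one of 3. The median over 36 embryos was 26.2 TPM for slc17a6b, 1.41 TPM for slc17a7a and 0.154 TPM for slc17a8, the counterpart of mammalian VGLUT3. Entries for slc17a6a and slc17a7b matched no symbol, and a copy listed under a LOC number alone would be missed. slc17a7a made up 9.27% ± 5.09 of the summed TPM of the 3 genes in SCO Control and 3.76% ± 2.18 in NBH Control (SD, n = 6 each). The ranges of this share overlapped, at 3.99% to 16.4% in SCO Control and 0.579% to 6.08% in NBH Control. With NBH Control against SCO Control, slc17a6b had a log2 fold change of −1.16 (edgeR adjusted p = 0.071) and slc17a8 of −0.51 (0.155), and neither was called. Neither was called in any exposure contrast, the smallest adjusted p being 0.0778 for slc17a8 in SCO PCB40 (log2 fold change −0.81, SE 0.26).

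slc17a6b varied widely among embryos of a group. In NBH PCB400 its level was 8.83, 68.7, 37.8, 8.38, 12.2 and 67.4 TPM in embryos 1 to 6. Embryo 2, the highest for slc17a7a, was also the highest of its group for slc17a6b, but embryo 6, nearly as high for slc17a6b, had 0.893 CPM of slc17a7a.

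sfxn3 was the lowest of the 6 sideroflexins with a symbol. Median levels were 29.9 TPM for sfxn1, 22.6 TPM for sfxn2, 13.1 TPM for sfxn4, 9.88 TPM for sfxn5b, 5.34 TPM for sfxn5a and 2.9 TPM for sfxn3. In SCO Control, however, sfxn3 reached 12.5 ± 3.3 TPM, beside 10.5 ± 0.849 TPM for sfxn4 and 13.0 ± 3.35 TPM for sfxn5b (SD, n = 6). Its share of the summed sideroflexin TPM was 13.7% ± 3.0 in SCO Control, 6.9% ± 1.73 in SCO Hg Fed and 5.33% ± 3.13 in SCO PCB40 (SD, n = 6 each). In the NBH groups the mean share was 2.22%, 2.13% and 1.9% in Control, PCB40 and PCB400. The ranges of the SCO Control share (10.2% to 17.4%) and the NBH Control share (1.61% to 2.79%) were far apart.

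**Figure D3:**
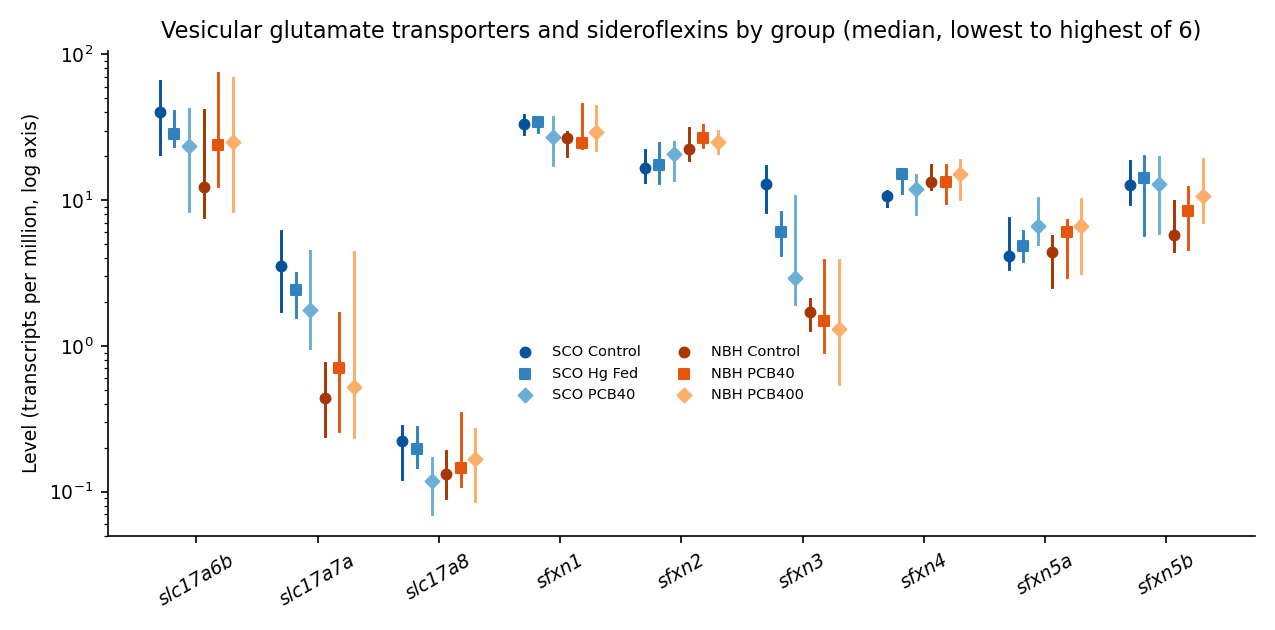
TPM (vertical log axis) of 3 vesicular glutamate transporters and 6 sideroflexins by group, drawn as the median (point) and the lowest to highest embryo (bar, n = 6). slc17a7a, sfxn3 and sfxn5b have a lower median in each NBH group than in each SCO group. The sfxn5b medians are 5.72, 8.45 and 10.6 TPM in NBH Control, PCB40 and PCB400. In SCO Control, Hg Fed and PCB40 they are 12.7, 14.2 and 12.8 TPM. By contrast, sfxn2 and sfxn4 have higher medians in NBH Control (22.4 and 13.4 TPM) than in SCO Control (16.5 and 10.7 TPM).

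The other sideroflexins did not share one direction between the controls. With NBH Control against SCO Control, sfxn2 rose by 0.68 on the log2 scale (SE 0.18, edgeR adjusted p = 0.0107) and sfxn4, which human cells need for iron-sulfur cluster work, rose by 0.61 (SE 0.19, 0.0271). sfxn5b fell by 0.88 (SE 0.26, 0.0198), sfxn1 fell by 0.28 (SE 0.10, 0.0474), and sfxn5a, at 0.09, was not called (0.846). The sfxn2 call remained whichever of the 12 control embryos was left out. That of sfxn1 ended without any single control embryo (0.0524 to 0.0937), that of sfxn4 without NBH Control 5 (0.0511), NBH Control 6 (0.0617) or SCO Control 1 (0.0598), and that of sfxn5b without NBH Control 6 (0.0519) or SCO Control 3 (0.0526). All 4 calls ended with the library's length slope, described below, as a covariate, with log2 fold changes of 0.39, 0.07, −0.53 and −0.09 for sfxn2, sfxn4, sfxn5b and sfxn1. None of the 5 was called in an exposure contrast or for the interaction.

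Genes that make, recycle or clear glutamate act before or after the vesicular step. Of 17 tested, got2b, a mitochondrial aspartate aminotransferase, and glsa, a glutaminase that makes glutamate from glutamine, were higher in NBH Control than in SCO Control (log2 fold changes 0.32 and 0.29, edgeR adjusted p = 0.0204 and 0.0249), and none was lower. Of all genes tested, 17.4% were called in this contrast. The list's median log2 fold change was 0.20, beside −0.01 over all genes tested. Calls between the controls in this list, and in the serine and neuron lists below, were not rerun with other settings or with embryos left out. None of the 17 was called in SCO PCB40 or SCO Hg Fed. In NBH PCB400 against NBH Control, glsa (−0.34) and slc38a2, a glutamine transporter (−0.60), were lower, with adjusted p of 0.0299 and 0.0352 in edgeR, in a contrast with 3.74% of genes called. The glsa call ended without NBH Control 3, 4 or 6 or NBH PCB400 2, 3 or 5 (0.0508 to 0.0866), and that of slc38a2 without NBH Control 1, 2, 3 or 4 or NBH PCB400 1, 2, 5 or 6 (0.0522 to 0.0922).

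Of 19 tested genes of serine and one-carbon metabolism, the pathway sfxn3's human counterpart feeds, srr and mthfd2l were higher in NBH Control than in SCO Control and none was lower, where 17.4% of all genes were called. srr encodes serine racemase, which makes D-serine. It had a log2 fold change of 0.69 (edgeR adjusted p = 0.0142), and mthfd2l, a mitochondrial folate enzyme, one of 0.56 (0.0288). The median of the list was 0.26, beside −0.01 over all genes. In SCO PCB40, where sfxn3 fell, srr rose by 0.82 (SE 0.19, edgeR adjusted p = 0.0163) and no other gene of the list was called, where 2.67% of all genes were called and the list median was 0.16 beside 0.03. That call ended without SCO PCB40 embryo 4 (0.0692) or 5 (0.0651) and when only the 2 groups were fitted (0.0954). psph, the last enzyme of serine synthesis, fell by 1.19 in NBH PCB400 against NBH Control (SE 0.24, edgeR adjusted p = 0.00732), where sfxn3 was not called. No other gene of the list was called there, where 3.74% of all genes were called and the list median was −0.20 beside 0.05.

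Markers of the neurons in which VGLUT1 is known were also compared between the controls, where 17.4% of all genes were called. Of 14 genes of glutamate neuron identity, foxg1a, a forebrain transcription factor, was lower in NBH Control (log2 fold change −0.68, edgeR adjusted p = 0.0165) and 13 were not called, with a list median of −0.04. Of 16 cerebellar granule cell genes, cbln1 (−0.88, 0.00988), gabra6b (−0.66, 0.0427) and grm4 (−0.50, 0.0313) were lower, with a list median of 0.00. Of 18 synaptic vesicle genes, 5 were lower, among them the vesicle protein gene sv2a (−0.71, 0.00382), and 1 was higher, with a list median of −0.10. Lists of other neurons, of pan-neuronal genes and of other transporters were set beside these. The 9 tested GABA and glycine neuron genes held 2 lower and none higher (list median −0.22). The 7 tested genes of other vesicular transporters held 1 lower and 1 higher (list median −0.14). Two-way comparison of the 10 tested pan-neuronal genes gave 2 higher and none lower (list median 0.25). For the 5 tested Purkinje cell genes it gave 1 higher and none lower (list median 0.24). In SCO PCB40 against SCO Control, where 2.67% of all genes were called, emx2 (0.42, 0.0362) was the only identity gene called. The only granule cell gene called was cadpsb (−0.43, 0.0129), and none of the 18 vesicle genes was. The emx2 call ended without any single SCO Control embryo or SCO PCB40 3, 4, 5 or 6 (0.0546 to 0.113), and that of cadpsb without SCO PCB40 5 (0.051).

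Checked against the label of whole brain, the pan-neuronal markers elavl3 (792 to 1370 CPM) and snap25a (676 to 2150 CPM) were high in every library. Among the 10 matched pan-neuronal genes, nsg2 had the lowest median, 25.5 CPM (14.5 to 123 CPM). Levels of single markers in this check were not scaled by TMM factors. Of 30 matched retina markers, 24 had a median under 1 CPM, and 7 had a median of 0, among them vsx1, pde6b, prph2a, prph2b and opn1sw1. The 17 tested retina markers had a median log2 fold change of 0.01 in NBH Control against SCO Control, with 2 called higher and 1 lower. They summed to 21.1 to 32.8 CPM in SCO Control and 31.0 to 71.5 CPM in NBH Control, after TMM. The highest of them was pde6gb, with medians, without TMM factors, of 9.25 CPM over all SCO embryos and 35.5 CPM over all NBH embryos. Without pde6gb the sums were 14.8 to 18.6 CPM and 18.2 to 23.0 CPM. Their part in the slc17a7a result was not tested.

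Marker lists of other tissues and cells were also compared in SCO PCB40, in which sfxn3 fell and 2.67% of all genes were called. Of 9 skeletal muscle markers, 5 were called higher, led by ckmb (log2 fold change 3.16, edgeR adjusted p = 0.0216). The 9 summed to 20.9 to 404 CPM against 17.7 to 52.3 CPM in SCO Control. Embryo 3 had the 404 CPM, and the next highest exposed embryo, 6, had 130 CPM. Of 11 oligodendrocyte genes, mag (−1.04, 0.0401), nkx2.2a (−0.45, 0.0365) and cldn19 (−0.51, 0.0481) were lower, with a list median of −0.45. The 11 genes summed to 1690 to 2840 CPM against 1680 to 2580 CPM in SCO Control. Of 12 microglia and leukocyte genes, spi1b (0.79, 0.04) and grna (0.69, 0.04) were higher. None of 3 erythrocyte markers was called (median log2 fold change 0.97), and they summed to 45.5 to 121 CPM against 13.3 to 86.3 CPM. Pituitary markers summed to 0.0624 to 0.278 CPM in SCO PCB40 embryos 2 to 5 and to 98.6 and 278 CPM in embryos 1 and 6, and in SCO Control to 0.0331 and 0.148 CPM in embryos 4 and 3 and to 70.1 to 216 CPM in the other 4. The part of these lists in the sfxn3 result was not tested.

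The libraries also differed in how their deviations followed transcript length. For each library a line was fitted to the log2 deviation from the mean library against log2 effective length, over genes with a mean above 2 log2 CPM, and its gradient is called the length slope. It was positive in every SCO Control library (0.016 to 0.137) and negative in every NBH Control library (−0.116 to −0.0349), so length slope and population cannot be told apart in the controls. With the slope as a covariate, the log2 fold change of NBH Control against SCO Control was −1.74 for slc17a7a (SE 0.50) and −1.86 for sfxn3 (SE 0.29). With a length trend removed per library it was −2.83 and −2.89.

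The 3 PCB126 groups held libraries of both signs, while all 6 SCO Hg Fed libraries were positive (0.00434 to 0.119). In SCO PCB40, embryos 1, 2 and 3 had slopes of 0.0934, 0.198 and 0.0186, and embryos 4, 5 and 6 had −0.185, −0.135 and −0.117. Embryos 1 and 2 were the highest of that group for both genes. Against SCO Control, sfxn3 in SCO PCB40 had a log2 fold change of −1.08 with the slope as a covariate (edgeR adjusted p = 0.0153) and of −0.94 over embryos with a positive slope (0.368). slc17a7a had −0.02 with the covariate. In the interaction the covariate gave −1.02 for sfxn3 and −0.64 for slc17a7a. In NBH PCB400 against NBH Control it gave −0.83 for sfxn3 (SE 0.27, edgeR adjusted p = 0.0947) and 0.09 for slc17a7a (0.956). Against NBH PCB40 it gave −0.77 for sfxn3 (0.11) and −0.53 for slc17a7a (0.57).

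**Figure D4:**
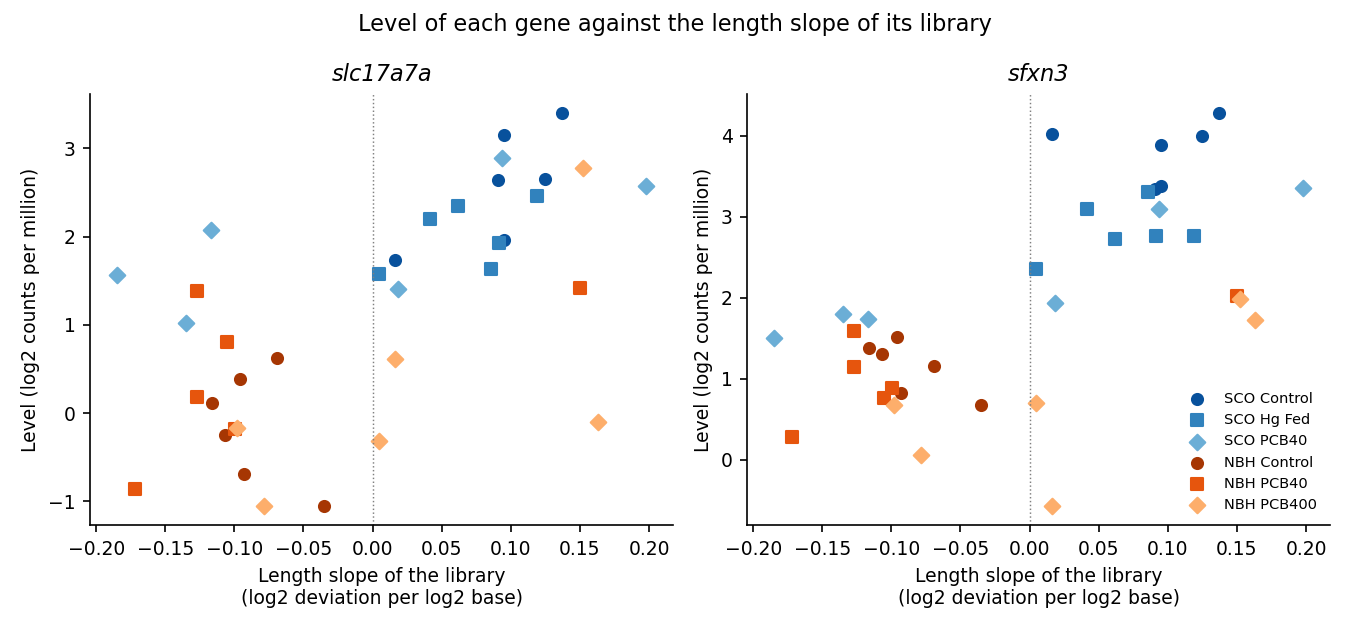
Log2 CPM of slc17a7a and sfxn3 (vertical axes) against the length slope of each library (horizontal axis, log2 deviation per doubling of effective length), 36 embryos marked by group. At a given sign of the slope the NBH embryos lie mostly below the SCO embryos, though their exposures differ. Within a population the embryos of higher slope tend to lie higher.

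Split by the sign of the slope, the NBH median was below the SCO median in each split. Among libraries with a negative slope, slc17a7a ran from 0.445 to 2.56 CPM (median 0.851) in 13 NBH embryos and from 2.0 to 4.16 CPM (median 2.92) in 3 SCO embryos. Among those with a positive slope it ran from 0.764 to 6.84 CPM (median 1.49) in 5 NBH and from 2.61 to 10.5 CPM (median 5.06) in 15 SCO embryos. For sfxn3 the negative-slope ranges were 1.01 to 2.97 CPM (median 1.8) in NBH and 2.8 to 3.44 CPM (3.31) in SCO, and the positive-slope ranges were 0.635 to 4.02 CPM (3.25) and 3.76 to 19.5 CPM (9.82). The ranges overlapped in all 4 splits. All 5 positive-slope NBH embryos were exposed to PCB126, whereas the 15 positive-slope SCO embryos included all SCO Control and SCO Hg Fed embryos. The 3 negative-slope SCO embryos were all of SCO PCB40. The splits thus differ in exposure too, and population chose the genes, so the part of the slope was not tested.

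Within populations the members were compared with each other and with the slope over 18 embryos each, on log2 CPM with the group mean removed, in 6 relations. The permutations shuffled embryos across the groups of a population. Their p-values therefore do not allow for unequal spread between groups or for the removed means, and may be too small. In NBH, slc17a7a and sfxn3 had a Pearson r of 0.577 (permutation p = 0.0121, adjusted over the 6 relations 0.0181) and a Spearman rho of 0.595 (0.0106, adjusted 0.0251). Without NBH PCB40 1 and NBH PCB400 2, the embryos farthest from the median of slc17a7a, r was 0.281 (permutation p = 0.294). The size of r thus depends on those embryos, though leaving out extremes of slc17a7a also narrows its range. In SCO r was 0.459 (permutation p = 0.0564, adjusted 0.0564) and rho 0.364 (0.138, adjusted 0.138).

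sfxn3 followed the length slope in SCO, with r = 0.787 (permutation p = 0.00013, adjusted 0.00078) and rho = 0.659 (0.00383, adjusted 0.023). Without the embryos farthest from the median of sfxn3, SCO PCB40 1 and 2, r was 0.566. The slope varied most in SCO PCB40 (SD 0.149, beside 0.0422 in SCO Control and 0.0406 in SCO Hg Fed), so that group weighs most in the SCO relations. For slc17a7a in SCO r was 0.621 (permutation p = 0.00519, adjusted 0.0104) and rho 0.585 (0.0125, adjusted 0.0251), with r = 0.524 without SCO Control 6 and SCO PCB40 5. In NBH, sfxn3 had r = 0.64 (permutation p = 0.00407, adjusted 0.0104) and rho = 0.408 (0.0931, adjusted 0.125), with r = 0.681 without NBH PCB400 2 and 5. slc17a7a in NBH had r = 0.526 (permutation p = 0.0282, adjusted 0.0339) and rho = 0.399 (0.104, adjusted 0.125), and r = 0.209 without NBH PCB40 1 and NBH PCB400 2.

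Over all 36 embryos the named genes most like slc17a7a in log2 CPM were tnip1 (r = 0.891), sox4a (0.875), tmem161a (0.864), u2af2a (0.852) and aldh5a1 (0.841). Those most like sfxn3 were tnip1 (0.9), arfgap1 (0.895), git1 (0.887), nr2f6a (0.886) and pald1a (0.885). tnip1, a ubiquitin-binding inhibitor of inflammatory signalling in mammals, led both orders. These coefficients are descriptions over embryos that share population, exposure and length slope. The members had r = 0.821 with each other, which placed sfxn3 17th of 23291 genes by likeness to slc17a7a and slc17a7a 122nd by likeness to sfxn3. Both were chosen for their difference between populations, so a high pooled r was built into that choice and nothing is read from these ranks.

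With group means removed, the order was different. The members' r was 0.536, rank 907 for sfxn3 and 2430 for slc17a7a. slc17a7a was then closest to si:ch1073-224n8.1 (0.789), jak2b (0.78), pnrc2 (0.769), ppp1r1b (0.767) and gpc3 (0.765). sfxn3 was closest to nr2f6a (0.864), a nuclear receptor gene, nup153 (0.858), ppfia1 (0.841), paqr7b (0.84) and gna13b (0.836), and most opposite to selenou1a (−0.877).

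selenou1a, a selenoprotein gene, is the next annotated gene to sfxn3 on one side. Of the 10 genes nearest to sfxn3, 5 on each side, 8 had enough reads to test, and ftr14l and pdzd7a had not. With NBH Control against SCO Control, selenou1a rose by 0.62 on the log2 scale (SE 0.19, edgeR adjusted p = 0.0225), while lzts2a fell by 0.52 (SE 0.17, 0.0305) and tp53bp2a fell by 0.80 (SE 0.18, 0.00395). The other 5 were not called, and 17.4% of all genes were called in this contrast. The tp53bp2a call remained whichever control embryo was left out, that of selenou1a ended without NBH Control 5 (0.0542), and that of lzts2a without NBH Control 2, 5 or 6 or SCO Control 4 or 5 (0.0502 to 0.0785). Leaving embryos out does not bear on the length slope, which cannot be told apart from population in these controls. None of the 8 was called in SCO PCB40, where sfxn3 fell. The neighbour si:ch211-198a12.6 fell by 0.70 in NBH PCB400 against NBH Control (SE 0.16, edgeR adjusted p = 0.0142) and by 0.60 against NBH PCB40 (SE 0.16, 0.0339), where sfxn3 was not called. The table gives no named sequence for slc17a7a, so its neighbours were not analysed here.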

How the data were processed

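The deposited files hold, per library and RefSeq transcript, expected counts (estimated reads, not normalized) and TPM (scaled by effective length), both as deposited by the authors. Salmon 1.3.0 and edgeR 3.30.3 are named in the submitters' processing notes, with no role or order. The genome build, trimming and filters are not given in the sources used here, so no coordinates are printed. Each of the 56244 transcripts was found under a gene of the RefSeq table for assembly MU-UCD_Fhet_4.1, which was used for names and neighbours.

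Expected counts were summed to 31637 genes and rounded. Genes were filtered with filterByExpr by group, scaled by TMM and fitted with edgeR 4.0.16 in R 4.3.3 (glmQLFit, glmQLFTest) over all 36 libraries with a mean per group. The common biological coefficient of variation was 0.389. A gene was called at a two-sided Benjamini-Hochberg adjusted p under 0.05 over 23292 genes. Intervals of fold changes are 95% intervals from the fit. CPM is per M reads after TMM, except for levels of single markers in the whole-brain check, which had no TMM factors. The log2 CPM used a prior count of 2. Permutation tests drew 100000 resamples, were two-sided and shuffled embryos across the groups of a population, not within groups. The fitting steps were tested on simulated counts that held no length slope and no difference between the populations, so that test does not bear on either. Libraries held 38.5 to 66.4 M reads. Both members exceeded 3 reads, the floor for a gene not seen, in every library.

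Alternatives were RLE factors, no filter, DESeq2 1.42.0, only the groups compared, the replicate block, both length corrections and each embryo left out. Fits restricted to embryos with 1 sign of the length slope were added after seeing the data. The members, the 18 gene lists (282 entries, 206 matched by symbol) and the tests were chosen with earlier results of these data known. Named genes are the members, both families, 5 annotated genes on each side of sfxn3, the 5 genes most like each member, and from other lists up to 3 called genes per contrast. Genes named as opposite to a member, and markers named for their level, were chosen after their values were seen.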

Additional observations from a re-analysis of the deposited data

Results flagged for a closer look

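In NBH PCB400, embryo 2 stood apart from the other embryos of its group for slc17a7a. Its level was 6.84 CPM and the next highest of the 6 was 1.49 CPM, and the gap was 0.837 of the group's whole range, above Dixon's 95% critical value for 6 samples. For normally distributed values chance flags about 1 in 20 groups, and 12 groups (6 for each gene) were examined. The limit was applied to CPM only, and that rate need not hold for CPM. On the log2 CPM scale embryo 2 had 2.78, the next highest 0.61 and the lowest of the group −1.05. The flag was not examined on that scale. The same embryo was the highest of its group for sfxn3, at 3.92 CPM, and its library had a length slope of 0.152, the second highest of the group after embryo 6 (0.163). No other embryo passed the limit for either gene.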

How the results depend on the processing

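sfxn3 in SCO PCB40 against SCO Control kept its sign in every setting run. It was no longer called when only the groups compared were fitted (−1.42) or the length trend was removed (−1.46), and over embryos with a positive length slope, a subset with fewer exposed embryos (−0.94). With 1 embryo left out it ranged from −1.73 to −1.3. The slope as a covariate moved NBH Control against SCO Control to −1.74 for slc17a7a and −1.86 for sfxn3. Uncalled values that changed sign were those of slc17a7a for NBH PCB400 against NBH Control over negative-slope embryos (−0.55; −0.09 to 1.21 with 1 left out) and against NBH PCB40 with the slope covariate (−0.53) or over negative-slope embryos (−1.07; −0.81 to 0.49 with 1 left out). For sfxn3 they were NBH PCB40 against NBH Control with the covariate (−0.06) or over negative-slope embryos (−0.18; −0.18 to 0.19 with 1 left out), NBH PCB400 against NBH Control with the trend removed (0.02; −0.46 to 0.03) and against NBH PCB40 (−0.51 to 0.03). The cause was not tested. The correlation of the members without the 2 farthest embryos was 0.281 in NBH and 0.509 in SCO (permutation p = 0.0442). Over the settings that kept all replicates, or embryos of 1 slope sign, genes called ranged from 98 to 1303 in SCO PCB40 (main 622), 0 to 77 in SCO Hg Fed, 0 to 18 in NBH PCB40, 323 to 1556 in NBH PCB400 (870), 126 to 1593 between the doses (822), 538 to 6270 between the controls (4048), 2 to 622 between populations at 40 ng/L (169) and 2 to 77 for the interaction (4). With 1 embryo left out these counts ranged from 247 to 1470, 0 to 7, 0 to 1, 195 to 1359, 97 to 2594, 2726 to 3937, 38 to 482 and 2 to 30, in the same order.

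Replicate numbers did not pair the embryos: 42 same-number pairs had correlations from −0.508 to 0.537, and in 5 of 42 the own number fitted best. With the replicate block, sfxn3 in SCO PCB40 was −1.59 (edgeR adjusted p = 0.0063), and no call of either member changed. Alternatives were run for the members, the families, the neighbours of sfxn3 and the exposure calls of glutamate, serine and neuron genes. Isoform shares were not run, because each gene has 1 transcript. At 20 to 26 estimated reads in the lowest libraries, counting error alone spans more than a factor of 2.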
